A study of Saccharomyces cerevisiae with 12 samples.

Results

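The 30 genes described here encode the machinery that builds iron-sulfur clusters in budding yeast (Saccharomyces cerevisiae). The rule that chose them uses their known role in the pathway and no measured value, but earlier results of these data were known. They are 30 of the 6660 genes in each of 3 expression tables, and all 30 were found in each table, by systematic name where a table gave no gene name. By role they fall into 14 genes of mitochondrial assembly, 3 mitochondrial carriers, 9 genes of cytosolic assembly, and 4 genes of the cytosolic glutaredoxin branch that reports on clusters to the iron regulator Aft1.

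Messenger RNA was sequenced in 12 libraries of strain BY4741, a haploid laboratory strain of mating type a that lacks several biosynthetic genes. The first table holds the wild type (WT) replicate 1, mmm1Δ replicate 1 and mdm34Δ, and the second holds WT replicate 2, AFT1-C291F, mmm1Δ replicate 2 and sam37Δ, the latter pair also combined with VPS13-D716H, and VPS13-D716H alone. The description of WT replicate 2 names the table of the BPS experiment, but the column with its name stands in the second table and was used there. All of these were grown in YPD, a rich glucose medium, to an OD600 of about 0.8 to 1. The third table holds WT from clean YPD, untreated or given the iron chelator bathophenanthroline disulfonate (BPS) at 100 µM for 4 hours. WT and mmm1Δ have 2 libraries each. Every other group is 1 library, so its differences from WT have no replicate check and no p. The labels do not say whether the replicates came from separate cultures. The p-values thus rest only on spread between these libraries, most of it pooled over genes. The title of the series asks whether the junction between the endoplasmic reticulum (ER) and mitochondria is needed for iron homeostasis. Mmm1 and Mdm34 are subunits of ERMES, the tether at that junction, and Sam37 belongs to the machine that sorts proteins into the mitochondrial outer membrane. Vps13 is a lipid transfer protein, and D716H is a dominant allele known to bypass the loss of ERMES. AFT1-C291F, titled Aft1-1up, is an allele that keeps Aft1 active when iron is plentiful.

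Iron-sulfur clusters are cofactors of enzymes in respiration, amino acid and biotin synthesis, DNA replication and translation. In mitochondria the desulfurase Nfs1 with Isd11 supplies sulfur, frataxin (Yfh1) assists, ferredoxin (Yah1) and its reductase (Arh1) supply electrons, and the cluster forms on the scaffolds Isu1 and Isu2. The chaperones Ssq1 and Jac1 and the glutaredoxin Grx5 pass it on, and Isa1, Isa2, Iba57 and Nfu1 act late. Mrs3 and Mrs4 bring iron in across the inner membrane, and Atm1 exports a sulfur compound on which the cytosolic machinery depends. In the cytosol clusters form on Nbp35 and Cfd1 with electrons from Tah18 and Dre2, and Nar1, Cia1, Cia2 and Met18 hand them to client proteins. Grx3 and Grx4 with Fra1 and Fra2 turn Aft1 off when clusters are abundant.

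Values are FPKM, fragments per kilobase scaled to mapped fragments, which allow levels of different genes to be set side by side within a library. The libraries of the first table had median FPKM of 12.3 to 15.5, those of the second 40.2 to 44.3 and those of the third 50.4 to 52.2, so ratios are taken only within a table, as log2 of (FPKM + 1) over the WT of that table. A gene entered a comparison if its FPKM averaged 5 or more over the libraries in it, and 2-fold, a log2 ratio of 1 or more in size, was the threshold. Depth is unknown, since the values keep no read counts. FPKM gives a share of the mRNA pool, so fewer cells with a transcript and less transcript per cell cannot be told apart. MMM1, MDM34 and SAM37 were listed at 0 in every library labelled as lacking them, and the BY4741 deletions LEU2, URA3 and MET17 were at 1.69 or lower in all 12. HIS3, whose allele in this strain is known as a partial deletion, was at 53.8 to 331. AFT1 mRNA was at 56.2 in AFT1-C291F against 10.03 in WT replicate 2. It was also higher elsewhere, at 28.5 in sam37Δ and at 57.7 with BPS against 25.6 in clean YPD, so its level alone does not mark that strain.

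In WT the assembly genes differed widely in level. FRA2 was the highest of the 30 in all 3 WT libraries, at 1464 FPKM in WT replicate 1, 891 in WT replicate 2 and 911 in clean YPD, above 95.1, 93.9 and 94.98% of all genes. ISD11, at 269, 696 and 556 FPKM, GRX5, at 640, 418 and 264, and ISU1, at 213, 474 and 418, were also above at least 86.0% of all genes in each. At the low end stood SSQ1, at 2.35, 17.5 and 27.9 FPKM, and MET18, at 2.67, 11.5 and 25.6. By FPKM the mRNAs of the scaffold, desulfurase partner and glutaredoxin thus stood far above those of SSQ1 and MET18 in each of the 3 WT libraries. The genes named as high are short, at 285 nt for ISD11, 363 for FRA2, 453 for GRX5 and 498 for ISU1. Those named as low are long, at 1974 nt for SSQ1 and 3099 for MET18, and the part of length in these levels was not tested. The order changed between tables for other members. NAR1 was at the percentile 86.0 in WT replicate 1 and 53.2 in WT replicate 2, and YAE1, an adaptor for the loading of one cytosolic client, was at 37.7 and 75.9.

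With the chelator BPS, 3 of 30 members were at least 2-fold higher and 6 at least 2-fold lower, and all 30 passed the filter. Over all genes the shares were 3.18% higher and 3.91% lower. The 3 higher genes were the scaffolds ISU1 and ISU2 and the iron carrier MRS4, and the 6 lower were YFH1, GRX5, ISA1, NFU1, DRE2 and GRX4. The median log2 ratio of the 30 was 0.14, against -0.0054 over all 6262 genes tested. With BPS, single members thus lay far from WT in both directions and the other 21 within 2-fold. No replicate of either library exists to set this against.

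**Figure D1:**
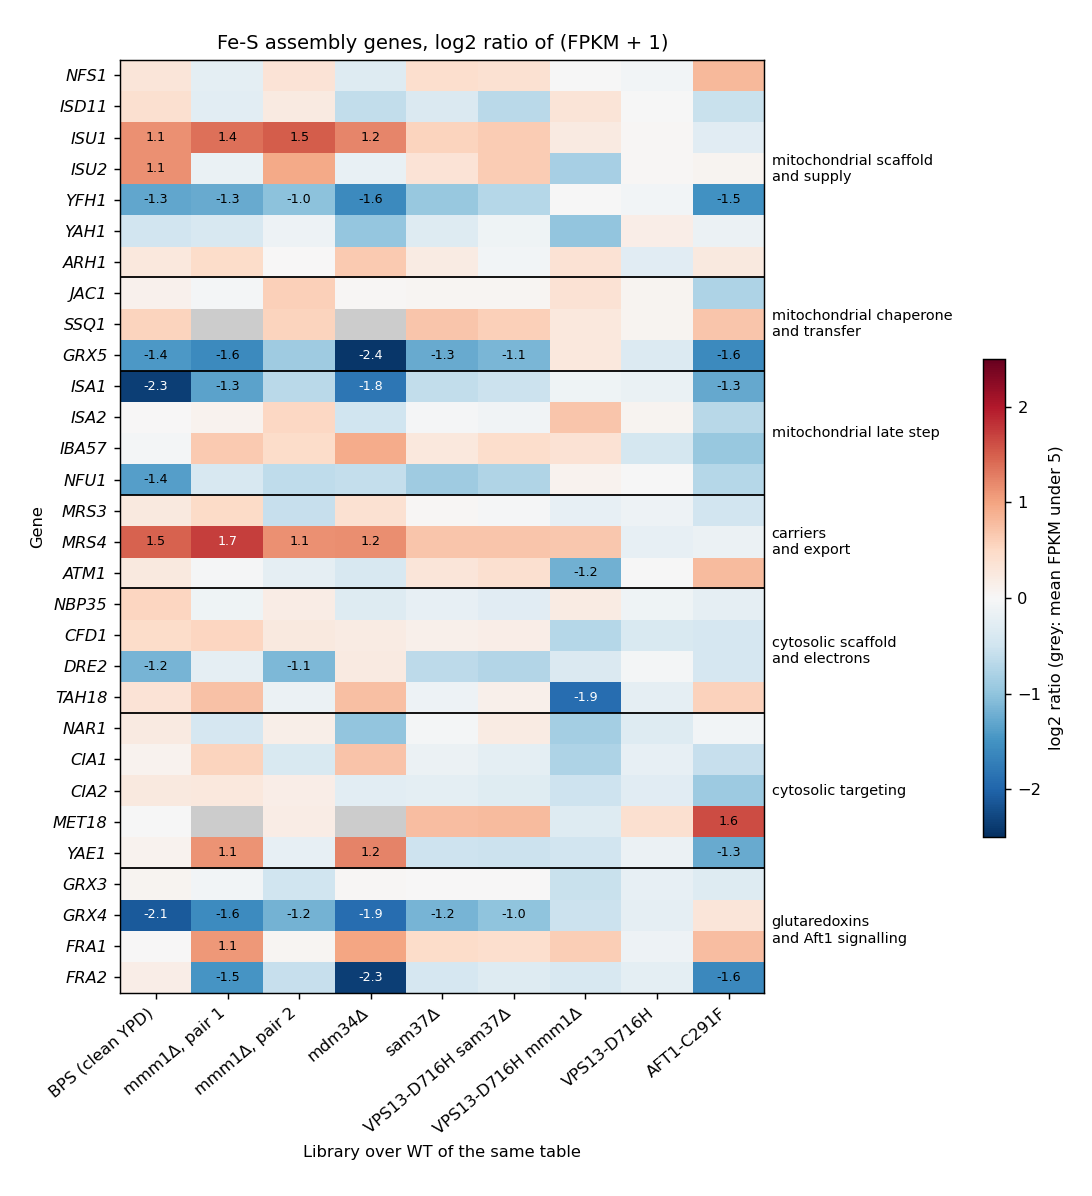
Log2 ratio of (FPKM + 1) of the 30 assembly genes (rows, grouped by role) in each library over the WT of its table (columns), with the value printed where it is at least 1 in size. ISU1 and MRS4 stand out as higher with BPS, in both mmm1Δ pairs and in mdm34Δ, and YFH1 and GRX4 as lower in the same columns, with GRX5 and ISA1 short of 2-fold in the second pair, while the VPS13-D716H column holds no value past 2-fold.

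ISU1 (YPL135W, chromosome XVI, 297553 to 298050 in build sacCer3) encodes the main cluster scaffold. It was at 418 FPKM in clean YPD and 925 with BPS. In the first table it was at 213 in WT, 551 in mmm1Δ and 495 in mdm34Δ. In the second table it was at 474 in WT, 1352 in mmm1Δ, 702 in sam37Δ, 740 in VPS13-D716H sam37Δ, 557 in VPS13-D716H mmm1Δ, 483 in VPS13-D716H and 387 in AFT1-C291F. Within its table ISU1 was thus highest in mmm1Δ and next highest in both sam37Δ libraries, while the double mutant VPS13-D716H mmm1Δ, which also lacks Mmm1, lay below these and AFT1-C291F was lowest. ISU2 (YOR226C, chromosome XV, 761614 to 762084), its paralog, went from 233 to 512 with BPS, but was at 381, 339 and 334 in WT, mmm1Δ and mdm34Δ of the first table. In the second table ISU2 was at 177 in WT, 339 in mmm1Δ, 224 in sam37Δ, 98.9 in VPS13-D716H mmm1Δ, 274 in VPS13-D716H sam37Δ, 181 in VPS13-D716H and 184 in AFT1-C291F. The log2 ratio of ISU2 in mmm1Δ was -0.17 in one pair and 0.94 in the other, and in mdm34Δ it was -0.19. These low values depend on the scaling: with a trend of the ratio with abundance and length removed, ISU2 was at 0.73 in the first pair, 0.98 in the second and 1.20 in mdm34Δ.

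MRS4 (YKR052C, chromosome XI, 532550 to 533464) encodes a mitochondrial iron carrier and is a known target of Aft1. Its FPKM was 61.2 in clean YPD and 172 with BPS, and 69.9, 235 and 157 in WT, mmm1Δ and mdm34Δ of the first table. In the second table it was 53.4 in WT, 119 in mmm1Δ, 87.1 in sam37Δ, 86.2 in VPS13-D716H mmm1Δ, 86.7 in VPS13-D716H sam37Δ, 46.0 in VPS13-D716H and 48.5 in AFT1-C291F. As for ISU1, AFT1-C291F lay just below WT. The paralog MRS3, at 124 and 148 without and with BPS, stayed within a log2 ratio of -0.57 to 0.47 in all 9 comparisons with WT. ATM1, the exporter, had a ratio of 0.25 with BPS. The 3 carriers therefore did not move as a group.

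Of the 6 genes lower with BPS, ISA1 (YLL027W, chromosome XII, 87403 to 88155), for late maturation, was lowest, at 157 FPKM in clean YPD and 30.01 with BPS. It was at 116, 45.5 and 32.6 in WT, mmm1Δ and mdm34Δ of the first table. In the second it was at 115 in WT, 71.7 in mmm1Δ, 75.1 in sam37Δ, 107 in VPS13-D716H mmm1Δ, 79.6 in VPS13-D716H sam37Δ, 103 in VPS13-D716H and 47.2 in AFT1-C291F. Its partner genes in the same step differed from it: with BPS ISA2 had a log2 ratio of 0.02 and IBA57 of -0.05, against -2.34 for ISA1. NFU1 (YKL040C, chromosome XI, 361058 to 361828), which passes clusters to late clients, was at 94.2 and 35.6 without and with BPS, 26.4, 19.8 and 17.1 in WT, mmm1Δ and mdm34Δ of the first table, and 123 and 78.9 in WT and mmm1Δ of the second. NFU1 was at 66.3 in sam37Δ, 131 in VPS13-D716H mmm1Δ, 72.9 in VPS13-D716H sam37Δ, 121 in VPS13-D716H and 74.6 in AFT1-C291F. The NFU1 ratio passed 2-fold with BPS alone among the 9 comparisons, at -1.38, and lay at -0.40 to -0.88 in the other libraries except VPS13-D716H and VPS13-D716H mmm1Δ.

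GRX5 (YPL059W, chromosome XVI, 444579 to 445031), the mitochondrial glutaredoxin, was at 264 FPKM in clean YPD and 97.4 with BPS, and at 640, 212 and 118 in WT, mmm1Δ and mdm34Δ of the first table. In the second table it was at 418 in WT, 226 in mmm1Δ, 174 in sam37Δ, 503 in VPS13-D716H mmm1Δ, 189 in VPS13-D716H sam37Δ, 332 in VPS13-D716H and 138 in AFT1-C291F. Only the VPS13-D716H mmm1Δ library lay above the WT of its table. YFH1 (YDL120W, chromosome IV, 245923 to 246447), the frataxin gene, was at 148 and 59.9 without and with BPS, and at 93.9, 38.4 and 30.6 in WT, mmm1Δ and mdm34Δ of the first table. In the second it was at 191 in WT, 93.6 in mmm1Δ, 98.5 in sam37Δ, 189 in VPS13-D716H mmm1Δ, 116 in VPS13-D716H sam37Δ, 183 in VPS13-D716H and 66.2 in AFT1-C291F. No YFH1 value was above its WT, and 5 of the 9 were at least 2-fold lower.

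GRX4 (YER174C, chromosome V, 538434 to 539168) encodes a cytosolic glutaredoxin that signals to Aft1 and is a known target of Yap5, the activator of genes for high iron. Its FPKM was 132 in clean YPD and 30.1 with BPS, and 110, 36.6 and 28.8 in WT, mmm1Δ and mdm34Δ of the first table. In the second it was 138 in WT, 60.5 in mmm1Δ, 61.0 in sam37Δ, 94.6 in VPS13-D716H mmm1Δ, 68.1 in VPS13-D716H sam37Δ, 118 in VPS13-D716H and 171 in AFT1-C291F. GRX4 was at least 2-fold lower in 6 of the 9 comparisons, and AFT1-C291F was the only library above its WT. Its paralog GRX3 was at 258 and 271 FPKM without and with BPS and had log2 ratios of -0.56 to 0.07 over the 9 comparisons. FRA1, at 0.01 with BPS, and FRA2, at 0.17, the partners of these glutaredoxins, were also close to WT there.

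**Figure D2:**
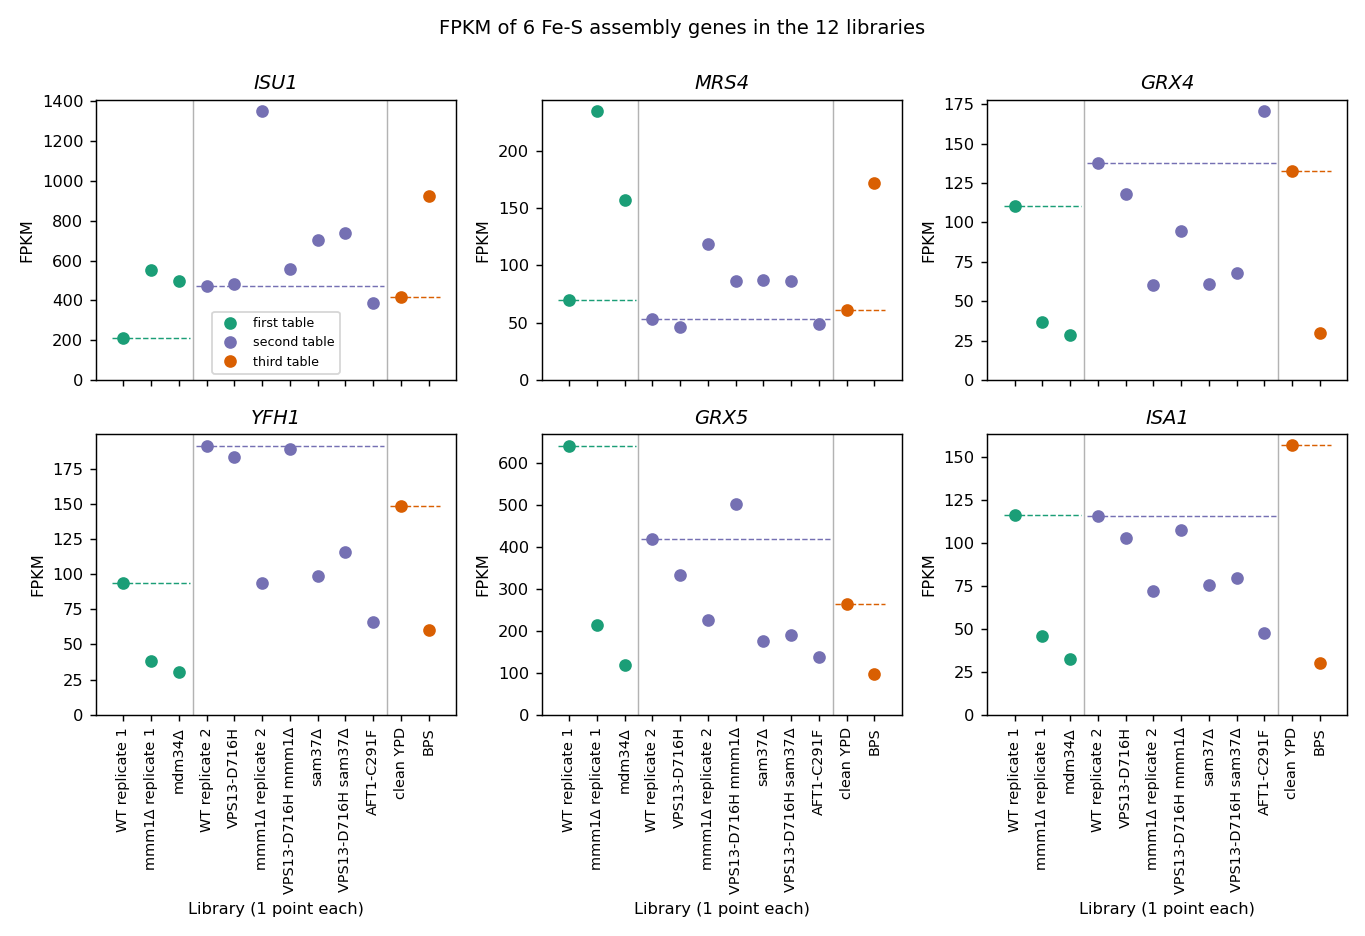
FPKM (vertical axes, linear from 0) of 6 assembly genes in each of the 12 libraries (1 point each), coloured by table, with a dashed line at the WT of each table. ISU1 and MRS4 are above the line in mmm1Δ, mdm34Δ and BPS but not in AFT1-C291F, and GRX4 at 171 FPKM in AFT1-C291F is above it while YFH1, GRX5 and ISA1 are below.

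In the cytosolic branch 1 of 9 genes was at least 2-fold lower with BPS and none higher, beside 3.91% and 3.18% of all genes. DRE2 (YKR071C, chromosome XI, 574934 to 575980), an electron carrier that itself holds clusters, was at 172 FPKM in clean YPD and 76.6 with BPS. It was at 32.0, 27.1 and 37.6 in WT, mmm1Δ and mdm34Δ of the first table, and at 197 in WT, 90.4 in mmm1Δ, 124 in sam37Δ, 152 in VPS13-D716H mmm1Δ, 117 in VPS13-D716H sam37Δ, 190 in VPS13-D716H and 146 in AFT1-C291F of the second. DRE2 thus differed between the mmm1Δ pairs, with log2 ratios of -0.23 and -1.11. The other 8 cytosolic genes had log2 ratios with BPS of -0.02 to 0.54, with the scaffold gene NBP35 highest at 42.2 and 61.9 FPKM and the targeting factors CIA1 and CIA2 at 0.09 and 0.24. The median was 0.23 for the 9 cytosolic genes and 0.07 for the 14 of mitochondrial assembly. In the latter 2 were at least 2-fold higher and 4 lower, beside the same 3.18% and 3.91% of all genes.

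Upstream sequence is shown for 4 of these genes, the pair higher with BPS that carries the core of the Aft1 and Aft2 motif and a pair lower with BPS that carries a Yap motif. Bases run 5′ to 3′ on the strand of the gene, from 250 to 101 before the start codon, and were read from the RefSeq reference genome, assembly R64, which is the assembly of build sacCer3. Capitals mark CACCC or GGGTG, its reverse complement, and TTACTAA or TTAGTAA, its reverse complement. The stretches are chrXVI:297303-297452 on the plus strand for ISU1, chrXI:533565-533714 on the minus strand for MRS4, chrIV:245673-245822 on the plus strand for YFH1 and chrXII:87153-87302 on the plus strand for ISA1.
ISU1: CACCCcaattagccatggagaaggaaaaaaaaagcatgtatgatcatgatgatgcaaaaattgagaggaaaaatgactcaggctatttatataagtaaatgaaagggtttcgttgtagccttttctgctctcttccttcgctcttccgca
MRS4: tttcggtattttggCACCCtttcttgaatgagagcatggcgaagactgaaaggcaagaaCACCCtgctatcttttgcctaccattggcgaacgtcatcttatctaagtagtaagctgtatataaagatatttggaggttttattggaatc
YFH1: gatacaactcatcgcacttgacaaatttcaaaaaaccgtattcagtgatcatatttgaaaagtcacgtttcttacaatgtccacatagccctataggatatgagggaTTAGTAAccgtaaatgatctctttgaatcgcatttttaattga
ISA1: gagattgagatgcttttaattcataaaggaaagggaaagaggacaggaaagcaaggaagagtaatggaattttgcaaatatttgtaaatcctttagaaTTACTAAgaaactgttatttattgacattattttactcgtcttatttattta

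CACCC on either strand was found within 250 bases of the start codon in 16.3% of 6001 protein-coding genes and in 8 of 30 members (NFS1, ISD11, ISU1, ISA2, MRS4, CFD1, CIA2 and FRA1). The longer GCACCC, which contains it, was in 3.28% of genes and in NFS1, MRS4, CFD1 and FRA1, and TGCACCC, longer still, in 1.15% and in NFS1. Of the 3 members higher with BPS, ISU1 held CACCC at the far edge of the window and MRS4 held it at 2 places, while ISU2 held none. TTACTAA was in 6.67% of genes and in 6 members (YFH1, ISA1, ISA2, NBP35, DRE2 and TAH18), of which YFH1, ISA1 and DRE2 were lower with BPS and the other 3 were not past 2-fold. No TTACTAA was found in this window of GRX4, GRX5 or NFU1. These matches describe letters in a window and do not show that a factor binds there.

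The AFT1-C291F library asks what an always active iron regulator does to the same genes. Its iron uptake genes were high. FIT2, a siderophore-binding cell wall protein, was at 13822 FPKM against 74.1 in WT replicate 2. The ferroxidase gene FET3 was at 2200 against 118. Their log2 ratios were 7.52 and 4.21, next to 7.12 and 3.34 with BPS. FIT2 was also high in other libraries, at 5.04 and 7.45 in the mmm1Δ pairs, 4.74 in mdm34Δ and 6.77 in sam37Δ. FET3 was at 1.26, 2.33, 0.77 and 2.78 there. In VPS13-D716H mmm1Δ FIT2 was still at 4.55, with FET3 at 0.81. Of the 30 assembly genes 1 was at least 2-fold higher in AFT1-C291F and 5 lower, where 15.6% and 14.2% of all genes were. The count of lower members is near the share of all genes, and the count of higher members is below it. The median of the 30 was -0.36, against -0.09 over all 6174 genes tested. ISU1, ISU2 and MRS4, the 3 genes higher with BPS, had log2 ratios of -0.29, 0.06 and -0.14, and GRX4, at -2.10 with BPS, was at 0.31. YFH1, GRX5 and ISA1 were lower in both libraries, at -1.52, -1.59 and -1.27 in AFT1-C291F and -1.29, -1.43 and -2.34 with BPS. With the trend removed ISU1, ISU2 and MRS4 were at 0.56, 0.80 and 0.19 in AFT1-C291F, so that ISU1 and MRS4 lay above WT, and GRX4 was at 0.94.

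The 3 other members past 2-fold in AFT1-C291F were close to WT with BPS. MET18 (YIL128W, chromosome IX, 113806 to 116904), the large targeting adaptor, was at 11.5 FPKM in WT replicate 2 and 37.7 in AFT1-C291F, and at 13.2 in mmm1Δ, 20.3 in sam37Δ, 15.6 in VPS13-D716H and 8.94 and 20.7 where that allele was joined to mmm1Δ and sam37Δ. It was at 25.6 and 25.3 without and with BPS, and in the first table at 2.67, 3.05 and 3.81, too low for the filter. YAE1 (YJR067C, chromosome X, 567019 to 567444) was at 138 in WT replicate 2 and 57.3 in AFT1-C291F, and was at 120 in mmm1Δ, 96.3 in sam37Δ, 125 in VPS13-D716H, 98.2 and 94.99 in its doubles with mmm1Δ and sam37Δ, and at 128 and 136 without and with BPS. FRA2 (YGL220W, chromosome VII, 82374 to 82736) was at 891 and 293 in WT replicate 2 and AFT1-C291F, at 594 in mmm1Δ, 663 in sam37Δ, 748 in VPS13-D716H and 677 and 710 in its doubles with mmm1Δ and sam37Δ, and at 911 and 1023 without and with BPS. In AFT1-C291F the long gene MET18 was high and the short genes YAE1 and FRA2 were low. With the trend removed, none of the 6 members past 2-fold remained so there: YFH1 was at -0.85, GRX5 at -0.82, ISA1 at -0.79, FRA2 at -0.76, YAE1 at -0.66 and MET18 at 0.42. IBA57, at -0.96 before, was then at -1.38. The same step left YFH1, GRX5 and ISA1 at -1.31, -1.47 and -2.34 with BPS.

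**Figure D3:**
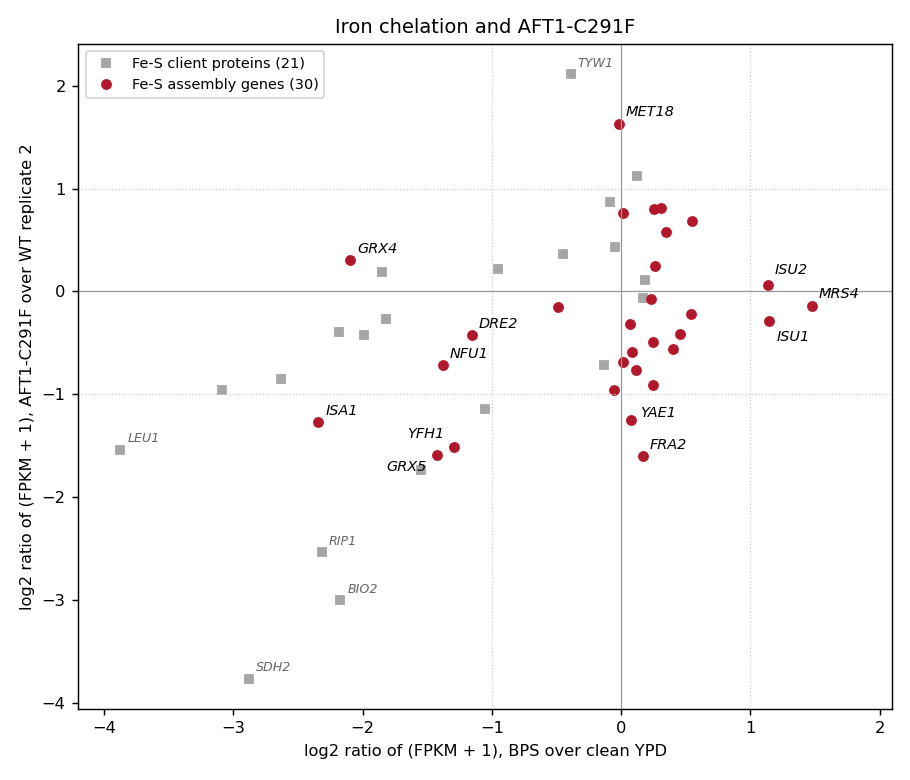
Log2 ratio of (FPKM + 1) with BPS over clean YPD (horizontal) against AFT1-C291F over WT replicate 2 (vertical) for the 30 assembly genes (circles) and 21 client genes (squares), 1 library per group. ISU1, ISU2 and MRS4 lie at 1.13 or more on the horizontal axis and near 0 on the vertical (0.56, 0.80 and 0.19 there with the trend removed), GRX4 lies at -2.10 and 0.31, and YFH1, GRX5 and ISA1 are below -1 on both axes.

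For mmm1Δ there are 2 pairs, 1 in each of the first and second tables. In limma, fitted over 6029 genes with the table as a term and Benjamini-Hochberg adjustment, none of the 30 members passed an adjusted p of 0.05, while 3.75% of all genes did (2.74% rose and 1.01% fell). An unadjusted p under 0.05 was reached by 6 members, ISU1, MRS4, YFH1, GRX5, ISA1 and GRX4, where 19.0% of all genes reached it, so the count of members is near the background. The median of the 30 was 0.07 and that of all genes 0.03. In the first pair alone 4 of 28 members were at least 2-fold higher and 5 lower, beside 8.28% and 15.8% of all genes, and in the second 2 of 30 and 3 of 30, beside 8.57% and 6.69%. With the trend removed, 4 of the first pair's 9 were within 2-fold, GRX5 at -0.68, FRA2 at -0.33, YAE1 at 0.92 and FRA1 at 0.82. At 2-fold in both pairs, ISU1 and MRS4 were higher and YFH1 and GRX4 lower of the 28 members that passed the filter in both, next to 4.07% and 4.37% of all genes.

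ISU1 had log2 ratios of 1.37 and 1.51 in the pairs, a mean of 1.44 ± 0.43 (moderated SE, limma adjusted p = 0.117). MRS4 was at 1.73 and 1.14, with a mean of 1.44 ± 0.36 (SE, limma adjusted p = 0.0717). GRX4 was at -1.56 and -1.17 and had a mean of -1.37 ± 0.34 (SE, limma adjusted p = 0.0698). Each of these genes was on the same side of WT in both pairs, and none passed over all genes tested. YFH1 had a mean of -1.15 ± 0.35 (SE, limma adjusted p = 0.126), GRX5 of -1.24 ± 0.42 (SE, limma adjusted p = 0.168) and ISA1 of -1.01 ± 0.36 (SE, limma adjusted p = 0.186). These calls depend on the genes tested. With a minimum mean of 20 FPKM, ISU1 and MRS4 rose and YFH1, ISA1 and GRX4 fell, of 24 members tested. In that setting 236 of all 4081 genes tested rose and 175 fell. The other set left out short genes (under 300 nt) and genes that share a locus, ISU1 among them. There MRS4 rose and YFH1, GRX5, ISA1 and GRX4 fell, of 26 members, beside 364 and 179 of 4618 genes. Both settings had infinite prior degrees of freedom, so a gene's own spread between pairs did not enter its p. In the main fit 1 residual degree of freedom stood beside 7.59 prior ones. There too each SE and p drew mostly on the spread of other genes.

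Most other members had pairs of small or opposite ratios in mmm1Δ. MRS3 was at 0.47 and -0.57, CIA1 at 0.55 and -0.37, NAR1 at -0.43 and 0.14 and TAH18 at 0.73 and -0.15. YAE1, at 7.36, 17.2 and 18.7 FPKM in WT, mmm1Δ and mdm34Δ of the first table and 138 and 120 in WT and mmm1Δ of the second, had ratios of 1.12 and -0.20. FRA2 was at 1464 and 524 FPKM in the first table and 891 and 594 in the second, with ratios of -1.48 and -0.58 (limma adjusted p = 0.286 for the mean). SSQ1 was at 0.72 and 0.55 and IBA57 at 0.65 and 0.45, with limma adjusted p-values of 0.310 and 0.368. SSQ1 passed the filter over the 4 libraries of the fit, though not in the first table alone.

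In mdm34Δ, 3 of the 28 members measured were at least 2-fold higher and 5 lower, against 11.8% and 23.4% of all genes. ISU1, MRS4 and YAE1 were higher at 1.21, 1.16 and 1.23, and YFH1, GRX5, ISA1, GRX4 and FRA2 were lower at -1.59, -2.43, -1.80, -1.90 and -2.35. These shares do not exceed the background. FRA2, at 287 FPKM in mdm34Δ, ends 141 bases from MDM34, the gene deleted in that strain, and its part in the FRA2 value was not tested. mdm34Δ and mmm1Δ replicate 1 share WT replicate 1 as control. With the trend removed, ISU1 and MRS4 were at 2.55 and 1.89 and FRA2 at -0.71, while ISU2, at -0.19 before, was past 2-fold at 1.20.

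In sam37Δ, 2 of 30 members were at least 2-fold lower, GRX5 at -1.26 and GRX4 at -1.16, and none was higher, where 10.7% and 6.32% of all genes were lower and higher. YFH1 was at -0.95 and NFU1 at -0.88, and ISU1 and MRS4 were at 0.57 and 0.69. In VPS13-D716H sam37Δ the same 2 genes were at least 2-fold lower, at -1.14 and -1.005, beside 10.9% of all genes, and none was higher, beside 6.81%. The log2 ratio of VPS13-D716H sam37Δ over sam37Δ lay between -0.32, for ISD11, and 0.29, for ISU2, over the 30 members, with none past 2-fold beside 2.20% of all genes. With the trend removed, GRX5 and GRX4 in sam37Δ were at -0.86 and -0.94, short of 2-fold, and ISU1 was past it at 1.17. In VPS13-D716H sam37Δ they were then at -0.73 and -0.75 and ISU1 at 1.27.

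VPS13-D716H alone had no member past 2-fold, beside 4.30% of all genes, and its ratios ran from -0.44 for IBA57 to 0.41 for MET18. In mmm1Δ the allele had larger ratios. VPS13-D716H mmm1Δ over mmm1Δ replicate 2 had 2 members at least 2-fold higher, GRX5 at 1.15 (0.99 with the trend removed) and YFH1 at 1.01, and 3 lower, ISU2 at -1.77, TAH18 at -1.76 and ISU1 at -1.28, where 21.5% of all genes were past 2-fold in either direction. The double mutant lay nearer to WT than mmm1Δ did for ISU1, at 0.23 over WT replicate 2 against 1.51, for MRS4, at 0.68 against 1.14, and for GRX4, at -0.54 against -1.17. YFH1 and ISA1 lay at -0.02 and -0.11, and GRX5 at 0.27 was above WT. Each value is 1 library, and both comparisons share WT replicate 2.

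Part of the pathway in the double mutant was further from WT than in either single mutant. TAH18, which feeds electrons to Dre2, was at 6.18 FPKM in VPS13-D716H mmm1Δ, against 23.4 in mmm1Δ, 22.0 in VPS13-D716H and 26.0 in WT replicate 2. ATM1 was at 9.06, 18.8, 22.0 and 22.2 in the same libraries. These were the 2 members at least 2-fold lower than WT there, at -1.91 and -1.20, beside 11.6% of all genes, and none was higher, beside 11.7%. Both are below the filter when it is raised to a mean of 20 FPKM. YAH1, the mitochondrial ferredoxin gene, was at -0.99, against -0.12 in mmm1Δ and 0.17 in VPS13-D716H. ISU2 was at -0.83, on the other side of WT from mmm1Δ, at 0.94, but not further from it. NAR1, CIA1, CFD1 and CIA2, all of the cytosolic branch, were at -0.85, -0.76, -0.72 and -0.51. In the same branch DRE2, at -0.37, was nearer to WT than in mmm1Δ, at -1.11, and NBP35 was above WT at 0.20. The median of the 9 cytosolic genes was -0.51, against 0.25 for the 14 genes of mitochondrial assembly and 0.0046 over all genes.

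**Figure D4:**
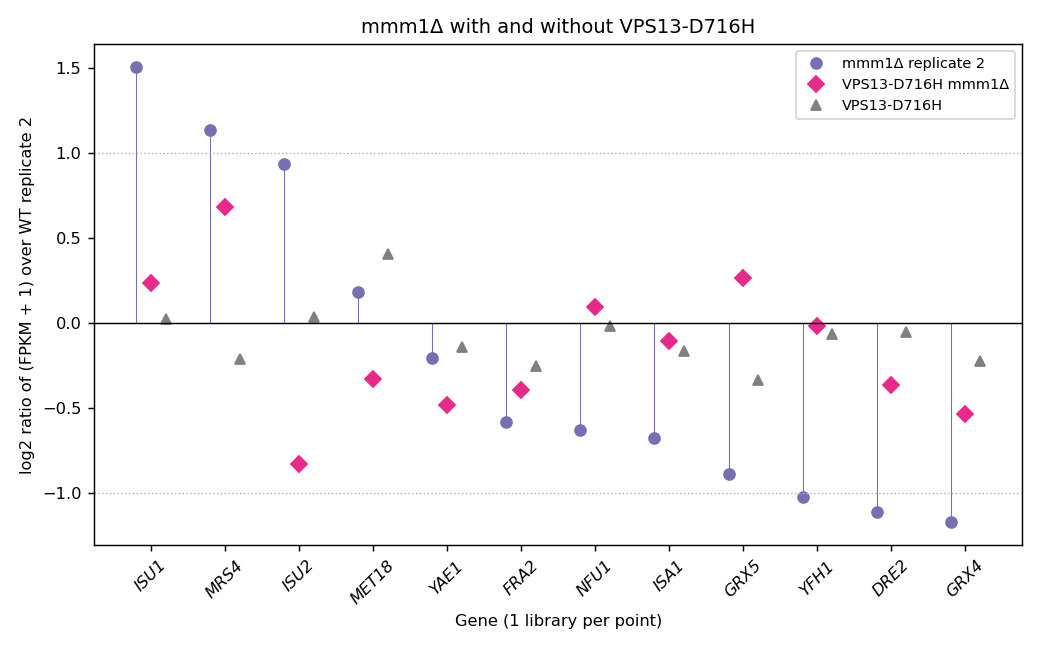
Log2 ratio of (FPKM + 1) over WT replicate 2 for 12 assembly genes in mmm1Δ replicate 2, VPS13-D716H mmm1Δ and VPS13-D716H, 1 library per point. The double mutant lies nearer to 0 than mmm1Δ for ISU1, MRS4, YFH1, GRX5, ISA1, GRX4, NFU1, DRE2 and FRA2. It lies on the other side of 0 for ISU2, at -0.83 against 0.94. For MET18, at -0.33 against 0.18, and YAE1, at -0.48 against -0.20, it lies further from 0.

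Across the 30 members, Pearson's r between the ratios with BPS and in sam37Δ was 0.79 (Spearman's rho 0.62), and between those with BPS and in mmm1Δ pair 2 it was 0.80 (rho 0.70). With pair 1 r and rho were 0.72 and 0.51 over 28 members, with mdm34Δ 0.62 and 0.44 over 28, and with AFT1-C291F 0.33 and 0.40 over 30. Over all genes r with BPS was 0.17, 0.27, 0.25, 0.28 and 0.12 in the same order. The points of each correlation come from 4 libraries, genes are not independent replicates, and the comparisons set against BPS share WT controls among themselves.

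Client proteins that carry the clusters were listed apart from the assembly genes, with earlier results of these data known. With BPS, 12 of 21 clients were at least 2-fold lower and none higher, beside 3.91% and 3.18% of all genes. All 7 mitochondrial clients were lower, with a median of -2.19, while the 14 cytosolic and nuclear ones had a median of -0.42 and 5 lower. The lowest were LEU1, an enzyme of leucine synthesis, at -3.87 and GLT1, glutamate synthase, at -3.09. ILV3, LYS4, RIP1 and SDH2 were at -2.63, -2.19, -2.32 and -2.88. In the limma fit of mmm1Δ 3 of the 20 clients tested fell and none rose, beside 1.01% and 2.74% of all genes. The biotin synthase gene BIO2 had a mean of -1.75 ± 0.34 (moderated SE, limma adjusted p = 0.0286). RIP1 of the cytochrome bc1 complex had a mean of -1.68 ± 0.33 (SE, limma adjusted p = 0.0283). SDH2 of succinate dehydrogenase had a mean of -1.496 ± 0.32 (SE, limma adjusted p = 0.0409). DPH2, for diphthamide synthesis, had a mean of -1.62 (limma adjusted p = 0.0502). The median over the 20 clients in this fit was -0.59 beside 0.07 for the 30 assembly genes. Of 12 accessory genes of the pathway, none was called in mmm1Δ, and with BPS BOL3, a late factor, was at -1.19 and the other 11 were within 2-fold. In VPS13-D716H mmm1Δ 3 of the 20 clients that passed the filter were at least 2-fold higher and 7 lower, beside 11.7% and 11.6% of all genes. The median of these clients was -0.46. SDH2 and RIP1 were above WT there, at 1.67 and 1.37, and DPH2 and LYS4 below it, at -2.11 and -1.17.

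**Figure D5:**
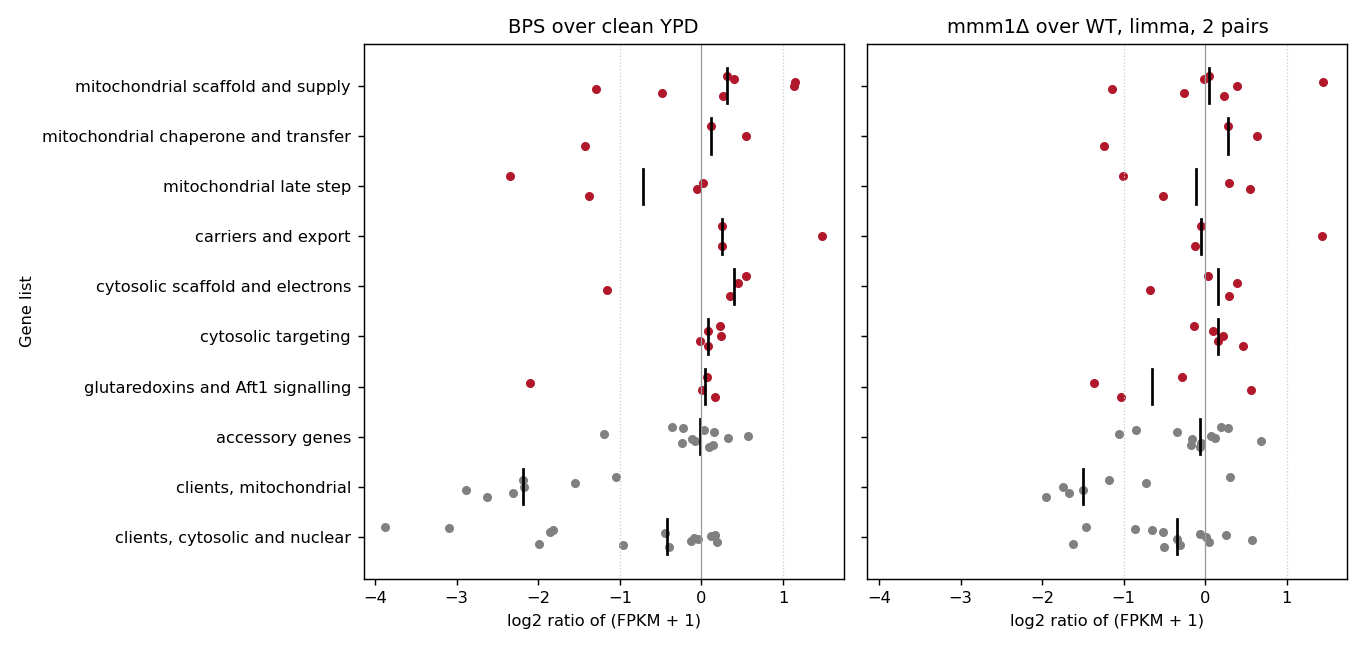
Log2 ratio of (FPKM + 1) per gene (points) and the median (bar) by step of assembly and for accessory and client genes, with BPS (left, 1 library a group) and in mmm1Δ (right, limma over 2 pairs). Mitochondrial clients sit at a median of -2.19 with BPS and -1.496 in mmm1Δ, while no step of assembly has a median beyond -0.72 or 0.40.

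Overlapping transcripts and paralogs limit some values. ISU1 shares its listed locus with YPL135C-A, a frame of 174 nt, which was at 149 FPKM in clean YPD and 62.7 with BPS, at 110, 378 and 308 in WT, mmm1Δ and mdm34Δ of the first table, and at 76.1 and 473 in WT and mmm1Δ of the second. The frame was thus high where ISU1 was high in mmm1Δ and mdm34Δ but low with BPS. It was at 0 in both sam37Δ libraries, where ISU1 was at 702 and 740. In VPS13-D716H mmm1Δ, VPS13-D716H and AFT1-C291F the frame was at 205, 170 and 6.14. ISU2 shares its locus with YOR225W, at 112 and 221 without and with BPS, and YAH1 with YPL251W, at 325 and 225. Counting by strand is not stated, so reads of these partners cannot be told apart from those of the members. Coding sequences of the paralogs were 69.4% identical for ISU1 and ISU2, 70.3% for MRS3 and MRS4 and 70.1% for GRX3 and GRX4, with longest identical runs of 12, 18 and 21 bases.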

How the data were processed

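The authors deposited 3 tables of FPKM per gene, normalized separately, with 1 column per library. Per the submitters' processing notes the tools were TopHat2 2.0.8 and Cuffdiff 2.0.2 and the build sacCer3. Their settings, the annotation and the use of strand are not given in the sources used here. All 30 members matched the reference (R64) by systematic name. The gene length differs in the first table for 273 genes, and 4 lines per table without values were left out. Depth is unknown and no count test was run.

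The rule for the members uses known roles, but the members and lists were chosen with earlier results of these data known. Values in every library are given for members called in the limma fit, at least 2-fold away with BPS or in AFT1-C291F, or so in 3 or more of the 9 comparisons with WT. Of the client and accessory genes up to 10 are named, those called first and then those farthest from WT with BPS; BOL3 was chosen after its values were seen. Log2 ratios used a pseudocount of 1, which understates the change of low genes, and a minimum mean of 5 FPKM. The comparison of mmm1Δ with WT was fitted with limma 3.58.1 in R 4.3.3 over 6029 genes, with the table, which is also the replicate number, as a block, and Benjamini-Hochberg adjustment at 0.05. Deviations of same-numbered libraries from their group means had a correlation of 0.616 over these genes, and the block stands for the separate normalization of the tables. Protein sequences were not used here, and paralogs were compared by coding sequence. Alternatives were other pseudocounts (0.1 and 5), other filters (none, or 20 FPKM), a set without genes under 300 nt or sharing a locus, centred ratios, a trend with abundance and length removed (lowess, span 0.3), no block and 1 pair left out. Scripts ran in Python 3.11.15 with pandas 2.3.3, numpy 2.4.6, statsmodels 0.14.6, Biopython 1.88 and matplotlib 3.10.9.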

Additional observations from a re-analysis of the deposited data

Results flagged for a closer look

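The log2 ratio of VPS13-D716H, taken with against without the allele in 1 background, was at least 1 in size in mmm1Δ and of the opposite sign in WT or sam37Δ for 5 members. Smaller ratios of opposite sign were not counted. These are the same 5 members that were past 2-fold in mmm1Δ, where 21.5% of all genes were. The share of all genes that meet the sign rule was not counted, and some of the opposite signs rest on ratios close to WT. Each ratio rests on 1 library against 1 library, and the difference was not tested. ISU1 was at -1.28 in mmm1Δ, 0.03 in WT and 0.08 in sam37Δ. ISU2 was at -1.77 in mmm1Δ, 0.04 in WT and 0.29 in sam37Δ. YFH1 was at 1.01 in mmm1Δ, -0.06 in WT (0.08 in WT with the trend removed) and 0.23 in sam37Δ. GRX5 was at 1.15 in mmm1Δ, -0.33 in WT and 0.12 in sam37Δ. TAH18 was at -1.76 in mmm1Δ, -0.23 in WT and 0.27 in sam37Δ. YFH1 and GRX5 thus had the same sign in sam37Δ as in mmm1Δ, and TAH18 the same sign in WT.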

How the results depend on the processing

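In the limma fit of mmm1Δ, 0 members were called, and also 0 with no filter, with a pseudocount of 5 and with no replicate block. With no filter 20 of 6660 genes rose and 3 fell, and with a pseudocount of 5 114 and 26 of 6029 did. With no block 0 of all 6029 genes were called, so that setting says nothing particular about the members. The count of members called was 5 without genes under 300 nt or sharing a locus and 5 at a minimum mean of 20 FPKM. It was 2 with a pseudocount of 0.1, 1 with centred ratios and 1 with the trend removed. Over all genes 364 rose and 179 fell of 4618 in the first of these, and 236 and 175 of 4081 in the second. Of 6029 genes, 248 rose and 124 fell with a pseudocount of 0.1, beside 165 and 61 in the main fit. With centred ratios 167 and 139 did, and with the trend removed 94 and 22. With the trend removed, members at least 2-fold away went from 9 to 5 in the first mmm1Δ pair, from 6 to 1 in AFT1-C291F, and from 2 lower to 1 higher, ISU1, in sam37Δ and in VPS13-D716H sam37Δ. The 1 in AFT1-C291F was IBA57, not one of the 6. With a pseudocount of 5 they went from 2 to 1 in VPS13-D716H mmm1Δ and in VPS13-D716H sam37Δ, and at 20 FPKM from 2 to 0 in the former. Signs turned in mmm1Δ for ISU2, from -0.17 to 0.94 with 1 pair left out (without replicate 2 and without replicate 1), YAE1, from -0.20 to 1.12 (without replicate 1 and without replicate 2), and MET18, at -0.0016 with centred ratios, with or without the block, and -0.0136 with the trend removed, against 0.16. The cause was not tested. Leaving out a pair leaves no residual degrees of freedom, so those values have no test. Over all settings, 62 counts of members stayed within 1.5 times of the value reported and 12, all printed here, did not.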
